A study of Epimedium pubescens with 12 samples.

Results

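The miR166 family of Epimedium pubescens leaves was described from the 3 rows of the miRNA table that carry its name, aqc-miR166a, aqc-miR166c and aqc-miR166e. The rows are those that carry the family name, and the rule that picks them uses no measured value, although the family was chosen for description with earlier results of these data known. The table held 220 miRNAs, of which 22 were matched to known miRNAs with the prefix aqc, used by miRBase for Aquilegia, and 198 were predicted (novel_N). The 3 members passed the filter on low counts, as did 137 miRNAs in all.

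Small RNA was sequenced from leaves of E. pubescens, a medicinal herb of the barberry family, grown as seedlings in sand. The nutrient solution held 0 mmol/L inorganic phosphate in the phosphorus-deficient plants (-P) and 1 mmol/L in the normally supplied plants (+P). Leaves were sampled at 30 days (30d) or 90 days (90d) of treatment, which gave 4 groups of 3 biological replicates (30d -P, 30d +P, 90d -P and 90d +P), lettered A to C. No genotype or further treatment separated the groups, and whether a library pooled several seedlings is not given in the sources used here.

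miR166 is among the oldest miRNA families of land plants. In Arabidopsis it guides cleavage of the mRNAs of class III HD-ZIP transcription factors, among them PHABULOSA, PHAVOLUTA and REVOLUTA, which specify the upper (adaxial) side of the leaf and pattern the vascular strands. The miRNA accumulates on the lower (abaxial) side, and the Argonaute protein AGO10 binds it and withholds it from its targets in the meristem. The family is encoded by several genes whose mature products are alike or nearly so, so reads of 1 member can be hard to tell from those of another. How reads were divided between the 3 rows is not given in the sources used here, and the split between members is uncertain for that reason.

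The miR166 family supplied most of the miRNA reads of these leaves. It held 64.8% of all counts over the 12 libraries, and between 45.4% and 77.4% of the counts of a library. A library held from 380316 to 1466897 counts in all, a ratio of 3.86. The exact Clopper-Pearson 95% interval reached at most 0.155 percentage points to either side of a family share, and this covers counting error only. Differences between libraries were therefore far larger than counting error, and replicate spread set the precision. The deposited TPM values were counts scaled to the same total in each library, so a share of counts and a TPM value order the libraries alike. A share is relative, and in bulk leaves fewer cells of a type and less RNA per cell cannot be told apart.

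aqc-miR166e was the most abundant miRNA in each of the 12 libraries. Its 6421087 counts made up 55.7% of all counts, against 7.26% for aqc-miR166c and 1.80% for aqc-miR166a. aqc-miR166c ranked between 2nd and 6th in a library and aqc-miR166a between 6th and 11th. The order e, c, a held in each library, with 3.01 to 21.8 reads of e for each read of c and 1.94 to 6.17 reads of c for each read of a. The most abundant predicted miRNAs, novel_1 and novel_2, held 8.28% and 6.53% of all counts. Ligation of adaptors depends on sequence, so these ratios compare read counts and not molecules.

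The family share was lowest in the A libraries of both 30d groups and highest in A and B of 90d +P. In 30d -P it was 45.4%, 62.8% and 62.1% in A, B and C, and in 30d +P it was 46.4%, 61.2% and 60.4%. In 90d -P it was 70.9%, 65.0% and 65.1%, and in 90d +P 77.4%, 74.8% and 59.3%. The -P libraries of 30d thus all lay below those of 90d, whereas 90d +P C lay inside the range of 30d +P. Both 30d A libraries also had the largest TMM scaling factors, 1.66 and 1.85 against 0.688 to 1.24 elsewhere. Values with either of them left out are given for some results, and no alternative left out both together.

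**Figure D1:**
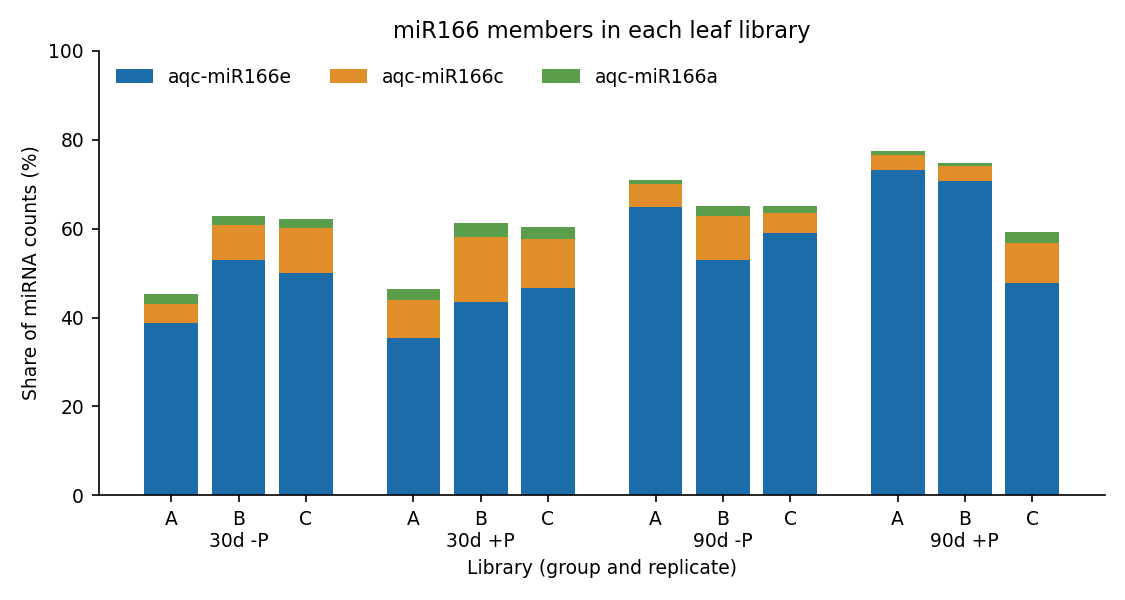
Share of miRNA counts (%) held by aqc-miR166e, aqc-miR166c and aqc-miR166a in each of the 12 leaf libraries, stacked, with the replicate letter and group below each bar. The whole bar is the family share, from 45.4% in 30d -P A to 77.4% in 90d +P A, and most of it is aqc-miR166e in each library.

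Within the family, aqc-miR166e held 71.2% to 94.6% of the reads, aqc-miR166c 4.34% to 23.7% and aqc-miR166a 1.07% to 5.17%. The mean share of e in the family was 83.4% ± 2.59 in 30d -P against 74.9% ± 3.27 in 30d +P, and at 90d it was 87.7% ± 5.54 for -P and 89.8% ± 8.08 for +P (SD, n = 3 each). The lowest group mean was thus that of 30d +P. For 30d -P, 30d +P, 90d -P and then 90d +P, c held 12.8% ± 3.28, 20.2% ± 3.04, 9.91% ± 4.55 and 8.04% ± 6.26 of the family (SD, n = 3 each). The corresponding values for a were 3.76% ± 1.05, 4.94% ± 0.357, 2.35% ± 1.14 and 2.13% ± 1.82. In 90d +P the SD of a and c was nearly as large as the mean, with A and B low and C high.

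A pair of 90d libraries had a family make-up in the range of 30d. In 90d -P B, e, c and a held 81.4%, 15.2% and 3.47% of the family, and in 90d +P C they held 80.5%, 15.3% and 4.23%. The other 4 libraries of 90d had e at 90.4% to 94.6%. At 30d, e held 71.2% to 85.5%. The deepest library, 30d +P C, had e at 77.3%, the highest of its group, and the shallowest, 30d +P B, had it at 71.2%, the lowest.

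Setting 30d -P beside 30d +P addressed the early response of leaves to phosphorus deficiency. The family as a whole took a similar share of reads under both supplies, while in these libraries aqc-miR166e made up more of it and aqc-miR166c less under -P, without overlap. The share of e in the family was 85.5%, 84.4% and 80.5% under -P, and 76.2%, 71.2% and 77.3% under +P. The groups did not overlap. The difference was 8.56 percentage points (SE 2.41), with an exact two-sided permutation p of 0.1, the smallest that 3 against 3 allows, and 0.2 after Benjamini-Hochberg adjustment over 6 comparisons.

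The ratio of e to c gave the same order of groups at 30d. On the log2 scale it was 3.16, 2.74 and 2.32 under -P and 2.03, 1.59 and 2.09 under +P. The lowest -P library lay 0.23 above the highest +P library, both lettered C, and the difference of means was 0.83 (SE 0.29), a ratio 1.78-fold higher under -P (exact permutation p = 0.1, adjusted 0.2). The deviations of same-letter libraries correlated at 30d, so these libraries were also compared as pairs by letter. The paired differences in log2 e to c were 1.12 for A, 1.15 for B and 0.23 for C, higher in 3 of 3 pairs, with an exact sign-flip p of 0.25, the smallest that 3 pairs allow. Leaving out a library in turn moved the unpaired difference in log2 e to c between 0.63 and 1.04. By pairs, the share of e in the family was higher under -P by 9.23 percentage points for A, 13.2 for B and 3.24 for C (exact sign-flip p = 0.25).

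aqc-miR166a was also scarcer beside e at 30d under -P. The log2 ratio of e to a was 4.11, 4.82 and 4.59 under -P and 3.90, 3.78 and 4.09 under +P, which did not overlap but nearly touched. The difference was 0.58 (SE 0.23), or 1.50-fold (exact permutation p = 0.1, adjusted 0.2). By pairs it was 0.21 for A, 1.04 for B and 0.50 for C (exact sign-flip p = 0.25). The ratio of c to a did not separate the groups, at 0.95, 2.09 and 2.28 under -P and 1.86, 2.20 and 2.01 under +P (difference -0.25, SE 0.42, exact permutation p = 0.9). The low value of 30d -P A set that direction, and without it the difference was 0.16. By pairs, c to a differed by -0.91 for A, -0.11 for B and 0.27 for C (exact sign-flip p = 0.75).

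Levels scaled across libraries gave no call at 30d. edgeR's quasi-likelihood test gave a log2 fold change of 0.42 (SE 0.45) for e, -0.32 (SE 0.65) for c and -0.23 (SE 0.62) for a, each with an adjusted p of 0.986. None of the 3 members passed an adjusted p of 0.05, against 0% of the 137 miRNAs tested, and none passed an unadjusted p of 0.05, against 3.65%. DESeq2 and limma also called 0 members. The family share itself differed by 0.743 percentage points (unpaired SE 7.45, exact permutation p = 0.7), and by -1.05 for A, 1.56 for B and 1.72 for C when paired by letter (exact sign-flip p = 0.5). Leaving out 1 library of a pair turned the unpaired difference to -4.05 without 30d +P A, -2.27 without 30d -P B and -1.94 without 30d -P C.

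At 90d the comparison of -P with +P addressed the prolonged deficiency. No measure of the family separated the 2 phosphorus levels, and the replicates differed among themselves more than the means did. The log2 ratio of e to c was 3.63, 2.42 and 3.65 under -P and 4.39, 4.45 and 2.40 under +P. The ranges overlapped, with the highest 2 values and the lowest value of the 6 all under +P. The difference was -0.51 (SE 0.79, exact permutation p = 0.6, adjusted 0.72), and it lay between -1.18 and -0.10 when a library was left out.

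The other measures at 90d lay inside the same spread. The log2 ratio of e to a was 6.26, 4.55 and 5.24 under -P and 6.47, 6.45 and 4.25 under +P, a difference of -0.37 (SE 0.89, exact permutation p = 0.8). The family share was 3.48 percentage points lower under -P (SE 5.98, exact permutation p = 0.6). edgeR gave log2 fold changes of -0.49 (SE 0.45, adjusted p = 0.658) for e, -0.07 (SE 0.65, adjusted p = 0.959) for c and -0.25 (SE 0.62, adjusted p = 0.872) for a. Called members numbered 0 of 3, against 2.19% of all miRNAs tested, and 0 of 3 at an unadjusted p under 0.05, against 8.03%. DESeq2 and limma called 0 members too. The directions of c and a turned under library-total scaling, to 0.33 and 0.17.

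The phosphorus difference in log2 e to c and e to a was thus positive at 30d and negative at 90d, but the change between days was not resolved. At 90d the sign for e to a was not stable, at 0.028 without 90d -P B and 0.0013 without 90d +P A. The difference in c to a had the opposite signs, -0.25 at 30d and 0.14 at 90d. The difference of differences in log2 e to c was -1.34 (SE 0.84) and in e to a -0.96 (SE 0.92), both given as a description with no test. For the level of e, the edgeR interaction was -0.91 (SE 0.63, adjusted p = 0.671), for c 0.25 (SE 0.91, adjusted p = 0.948) and for a -0.02 (SE 0.87, adjusted p = 0.995). Of the members, 0 of 3 passed, against 0% of all miRNAs tested, and 0 of 3 passed an unadjusted p of 0.05, against 5.11%. Averaged over both days, the phosphorus effect on the level was -0.03 (SE 0.32) for e, -0.19 for c and -0.24 for a, with an adjusted p of 0.983 in edgeR for each. There too 0 of 3 members passed, against 4.38% of miRNAs, and 0 of 3 at the unadjusted threshold, against 9.49%, and DESeq2 and limma called 0 members in both comparisons.

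**Figure D2:**
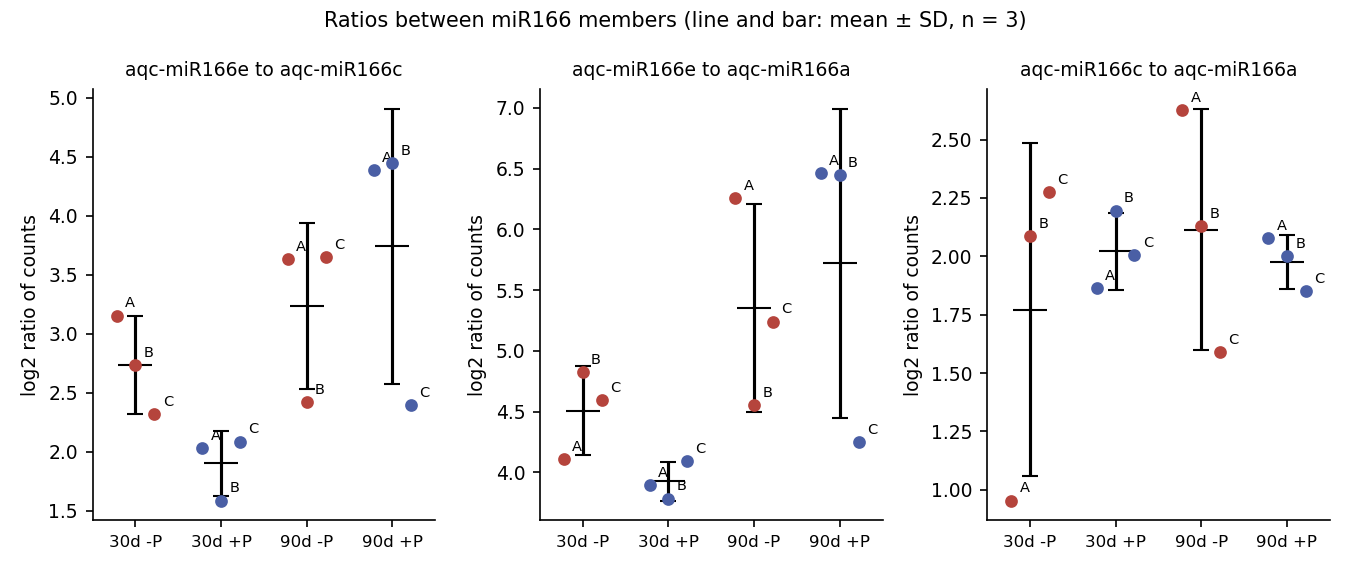
Log2 ratios of read counts between members (e to c, e to a and c to a) in each library, by group, with lines and bars for mean and SD (n = 3). The 30d -P libraries lie above the 30d +P libraries for e to c and e to a, the 90d groups spread widely, and c to a stays between 0.95 and 2.63.

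A contrast of 90d +P against 30d +P followed the leaves of normally supplied plants over time. The mean differences in family share and in the ratios of e to c and e to a were the largest here among the 4 comparisons of group pairs. In all 3 libraries of 90d, aqc-miR166e held more of the reads, and aqc-miR166c and aqc-miR166a less of the family, than in any library of 30d. The share of e in all counts was 35.4%, 43.6% and 46.7% at 30d and 73.1%, 70.8% and 47.7% at 90d. All 3 libraries of 90d lay above those of 30d, though 90d +P C did so by little. The difference was 22.0 percentage points (exact permutation p = 0.1, adjusted 0.3).

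The make-up of the family was separated too. The log2 ratio of e to c was 2.03, 1.59 and 2.09 at 30d and 4.39, 4.45 and 2.40 at 90d. These ranges did not overlap, and the mean difference was 1.84 (SE 0.69), a ratio 3.58-fold higher at 90d (exact permutation p = 0.1, adjusted 0.2). The ratio of e to a was 3.47-fold higher, at 1.80 (SE 0.74) on the log2 scale, again without overlap and with the same p-values. The ratio of c to a was unresolved, with a difference of -0.04 (SE 0.12, exact permutation p = 0.7), so c and a stood in much the same ratio at both days. Without 90d +P C the difference in e to c was 2.51, and over all libraries left out in turn it lay between 1.49 and 2.51.

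In the main edgeR fit, the level of e gave the largest fold change of a member. edgeR gave a log2 fold change of 1.31 (SE 0.46) for e at 90d +P against 30d +P, with an unadjusted p of 0.0122 and an adjusted p of 0.134. For c it was -0.35 (SE 0.65, adjusted p = 0.752) and for a -0.22 (SE 0.62, adjusted p = 0.829). Over all alternatives c ran from -1.25 to -0.13 and a from -1.22 to 0.011. The mean share of all counts was 11.4% at 30d and 5.26% at 90d for c, and 2.76% and 1.38% for a. For e it was 41.9% and 63.9%, so on shares the fold changes of c and a were larger than that of e. Which member changed most thus depended on the scaling. No member passed the adjusted threshold, against 0% of all miRNAs tested. At an unadjusted p under 0.05, 1 of 3 members (e) passed, against 26.3% of all miRNAs tested, so an unadjusted p of this size was common among the miRNAs tested.

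The call on e depended on the tool. DESeq2 on 12 libraries gave 1.06 with an adjusted p of 0.0189, a stricter filter of 10 counts in 6 libraries gave 1.65 with 0.0480, and the newer quasi-likelihood method of edgeR gave 1.31 with 0.0489. Of all miRNAs tested, these settings called 22.6%, 0.909% and 13.9%. DESeq2 on the 6 libraries of the comparison and limma did not call it, and over all alternatives the adjusted p ran from 0.0189 to 0.411 and the log2 fold change from 0.59 to 1.65, always positive. Scaling shifted the whole table: with library totals the median of all miRNAs tested was -0.70, against 0.05 with TMM, and the fold change of e was 0.61. The summed family gave 0.62 (SE 0.39, adjusted p = 0.306).

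Under -P, the mean differences in family share, e to c and e to a from 30d to 90d were smaller than under +P. That contrast between phosphorus levels was not resolved. The family share was 45.4%, 62.8% and 62.1% at 30d and 70.9%, 65.0% and 65.1% at 90d in A, B and C, groups that did not overlap, but the gap between them was small beside the value of 30d -P A. The difference was 10.3 percentage points (SE 6.02, exact permutation p = 0.1, adjusted 0.3), and 4.59 without 30d -P A. Under +P it was 14.5 (SE 7.42, exact permutation p = 0.3, adjusted 0.6), with overlapping groups, and 9.72 without 30d +P A. The difference of these differences was -4.23 (SE 9.55), given with no test. Under -P the log2 ratio of e to c differed by 0.50 and that of e to a by 0.84, with overlapping groups (exact permutation p = 0.3 for both, adjusted 0.45). edgeR gave 0.40 (SE 0.45, adjusted p = 0.701) for e, -0.10 (SE 0.65, adjusted p = 0.974) for c and -0.24 (SE 0.62, adjusted p = 0.855) for a. Members called were 0 of 3 against 0% of all tested, and 0 of 3 against 8.03% at the unadjusted threshold, with 0 also from DESeq2 and limma.

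Over both phosphorus levels, the mean time effect compared the 6 libraries of 90d with the 6 of 30d within phosphorus level. The share of e in all counts was higher at 90d on average, and those of c and a lower, with overlapping days. The share of e in all counts had a median of 45.1% at 30d (35.4% to 53.0%) and of 61.9% at 90d (47.7% to 73.1%), and the mean difference was 16.8 percentage points (SE 5.18). The exact stratified permutation p was 0.01 and the adjusted p 0.06. The share of c was 9.34% at 30d (median, 4.35% to 14.5%) and 4.96% at 90d (3.25% to 9.86%), and that of a 2.31% (1.87% to 3.16%) and 1.20% (0.811% to 2.51%).

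The family share and the ratios followed the same direction over time and did not pass after adjustment. The family share was 12.4 percentage points higher at 90d (SE 4.78, exact permutation p = 0.015, adjusted 0.09). The log2 ratio of e to c was higher by 1.17 (SE 0.42, 2.25-fold, exact permutation p = 0.03, adjusted 0.18) and that of e to a by 1.32 (SE 0.46, 2.50-fold, exact permutation p = 0.02, adjusted 0.12). The ratio of c to a differed by 0.15 (SE 0.26, exact permutation p = 0.6). Single libraries decided the side of the threshold: without 90d +P C the family share difference was 15.2 with an adjusted p of 0.03. Without 90d -P B the difference in the share of e was 18.3, in the share of e in the family 11.2, in the share of a in the family -2.39 and in log2 e to a 1.52, each with an adjusted p of 0.03.

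edgeR put the mean time effect of e at 0.86 (SE 0.32), with an unadjusted p of 0.0178 and an adjusted p of 0.111. c stood at -0.22 (SE 0.46) and a at -0.23 (SE 0.44), both with an adjusted p of 0.760. Over the alternatives c ran from -0.77 to -0.083 and a from -0.86 to -0.23, so the main fit lay toward the weak end for both. Members called were 0 of 3, against 0% of all miRNAs tested, and 1 of 3 (e) at an unadjusted p under 0.05, against 30.7%. DESeq2 on 12 libraries called e (0.68, adjusted p = 0.0389), as it did 26.3% of all miRNAs tested, and limma called none. Without 30d +P C the edgeR value was 0.90 with an adjusted p of 0.0438, in a fit that called 16.7% of all miRNAs tested. The stricter filter (1.06, adjusted p = 0.0255) and leaving out both 30d C libraries (0.88, adjusted p = 0.0452) also called e, beside 3.64% and 29.7% of all miRNAs tested. The adjusted p ran from 0.0255 to 0.365 over the alternatives, with a positive fold change in each.

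**Figure D3:**
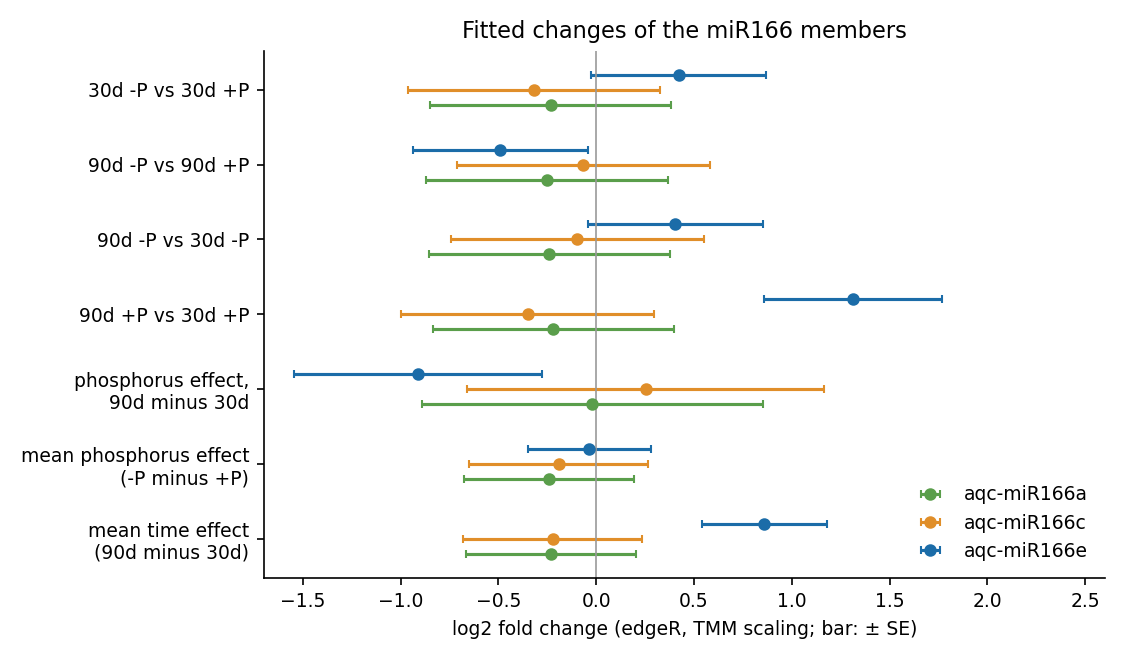
Log2 fold change of each miR166 member (edgeR, TMM scaling) in the 7 comparisons, with bars of 1 SE to either side. aqc-miR166e reaches 1.31 in 90d +P against 30d +P and 0.86 for the mean time effect. In this main fit a and c lie within 0.35 of 0 throughout, and they lay farther below 0 over time in some alternatives.

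The members differed in how they varied together. Per count outside the family, a and c varied together over the 12 libraries, and no such relation to e was resolved. Pearson's r was 0.749 for a with c (permutation p = 0.00526, adjusted over 3 pairs 0.0158) and Spearman's rho 0.832 (permutation p = 0.0014, adjusted 0.0042). It was 0.790 without the 2 libraries farthest from the median of a, 0.878 within the 6 libraries of 30d and 0.723 within the 6 of 90d. The points share a denominator, which by itself makes members covary, and how reads of near-identical members were divided was not tested.

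For e the relation to the other members differed in sign between days. Over 12 libraries r was -0.474 with a (permutation p = 0.122, adjusted 0.183, rho -0.476 with permutation p = 0.121, adjusted 0.181) and -0.022 with c (permutation p = 0.946, adjusted 0.946, rho -0.238 with permutation p = 0.454, adjusted 0.454). Without the 2 farthest libraries these were -0.388 and -0.418. Within 30d, e correlated positively with a (0.557) and c (0.712), and within 90d negatively (-0.822 and -0.640). The difference between days was not tested, and each value rests on 6 libraries.

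**Figure D4:**
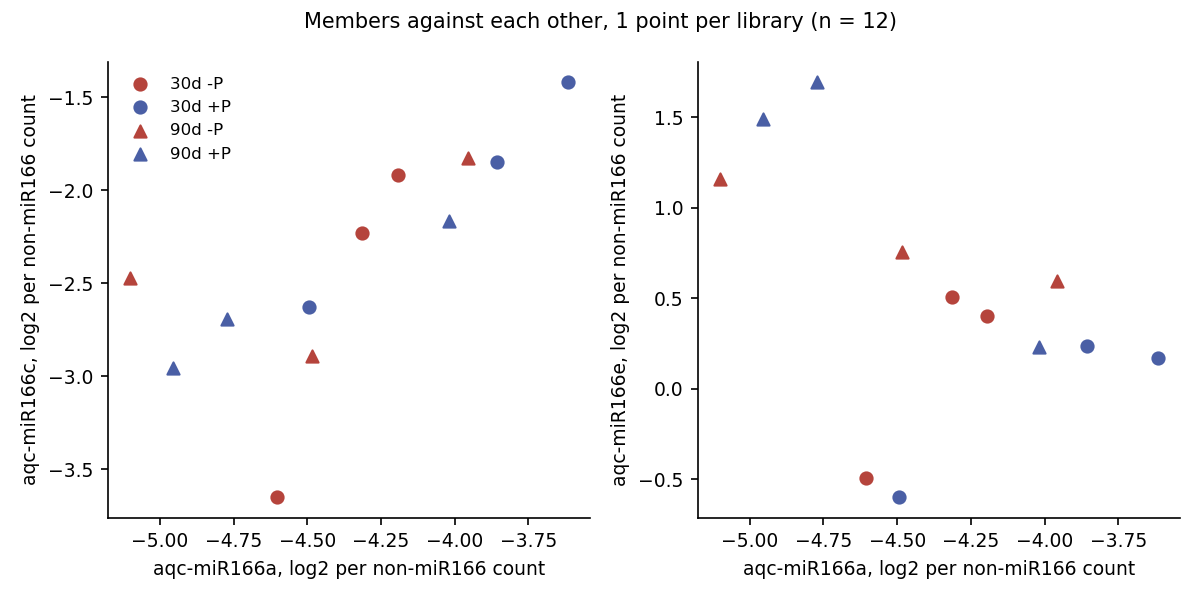
Counts of each member per count outside the miR166 family, on log2 axes, 1 point per library and with colour for phosphorus and shape for day. Left, c rises with a (r = 0.749), with 30d -P A far below the rest; right, e shows no such rise with a (r = -0.474).

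Other miRNAs were ranked by how closely their log2 TPM, TMM-scaled with 1 added, followed e over the 12 libraries. The closest of the 134 tested miRNAs outside the family were all predicted: novel_250 (r = 0.907), novel_30 (0.904), novel_70 (0.861), novel_45 (0.858) and novel_279 (0.853). Only 13 of the 134 were known miRNAs, so most of those ranked were predicted. The median r of the 134 was 0.037, and 69 lay above 0. novel_250 had only 85 counts over all libraries and novel_30 had 16373. In 90d +P against 30d +P the fitted log2 fold changes of these 5 were 3.95 for novel_250, 1.10 for novel_30, 1.84 for novel_70, 3.13 for novel_45 and 2.55 for novel_279, with edgeR adjusted p-values of 0.134 to 0.284, so none passed. The likeness is a description, as TMM scaling and depth are shared by all points. These 5 were picked for following e over the same libraries, so their rise with e here follows from that choice. By the same measure e had r = -0.04 with a and 0.23 with c, and a had 0.85 with c.

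The other known miRNAs of leaf development gave a background for the family. The table held 10 of them, namely members of the miR156 and miR172 families of phase change, miR159 and miR319 that target MYB and TCP transcription factors, miR160 of auxin response factors, miR171 of GRAS factors and miR396 of growth-regulating factors. Of these, 8 passed the filter on low counts, and aqc-miR156b and aqc-miR172b did not. None passed an adjusted p of 0.05 in any of the 7 comparisons with the older quasi-likelihood method of edgeR, which gave all edgeR values here unless another is named. At an unadjusted p under 0.05, 3 of the 8 were lower at 90d than at 30d under +P, against 13.1% of all miRNAs tested, and 3 for the mean time effect, against 15.3%, and 0 passed in the other comparisons. DESeq2 on 12 libraries called 2 of them lower in 90d +P against 30d +P, where it called 12.4% of all miRNAs lower, and 4 for the mean time effect, where it called 15.3% lower. In 90d +P against 30d +P, limma on log2(TPM + 1) and the newer method of edgeR each called aqc-miR171a lower, beside 2.19% and 2.92% of all miRNAs. DESeq2 on the 6 libraries of that comparison also called aqc-miR171a lower, where it called 7 of 116 miRNAs lower. For the mean time effect, edgeR called 2 lower without 30d +P C (9.03% of all miRNAs), of which aqc-miR156b passed the filter in that set of libraries, and 4 lower without both 30d C libraries (19.3%).

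Those 3 were aqc-miR171a, aqc-miR171f and aqc-miR172a, with fitted log2 fold changes of -3.13, -2.04 and -3.47 in 90d +P against 30d +P (edgeR adjusted p = 0.134, 0.184 and 0.184). The value for aqc-miR172a rests on few reads, with 7, 29 and 3 counts in A, B and C of 30d +P and 3, 2 and 0 in 90d +P. aqc-miR171a was also near the floor in 90d +P, with 7, 1 and 5 counts. The median log2 fold change of the 8 was -0.75 in that comparison, against 0.05 for all miRNAs tested and 1.31 for e. For 90d -P against 30d -P it was -0.43, against -0.08 over all miRNAs. For phosphorus it was -0.20 at 30d and 0.41 at 90d, against -0.15 and -0.44 over all miRNAs. The most abundant of them, aqc-miR396b, held 3.07% of all counts and aqc-miR396a 0.512%, both far below e. novel_1 and novel_2 had log2 fold changes of -0.18 (adjusted p = 0.822) and 0.72 (adjusted p = 0.390) in 90d +P against 30d +P in edgeR.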

How the data were processed

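Counts, TPM and group mean counts came from 1 table of 12 leaf small RNA libraries. Per the labels and methods, the authors made libraries with the NEBNext small RNA kit, removed adapter, low-quality, rRNA, tRNA, snRNA and repeat reads, and predicted miRNAs with miREvo and mirdeep2. The submitters' processing notes name Bowtie and DESeq2. Mismatch rule, genome build and miRBase release were not given in the sources used here. Deposited by the authors were raw read counts, TPM equal to CPM of the table total, and group means of counts. The deposited means need not be whole, were handled as estimated counts and were not used. Unused per-sample columns numbered 0. No molecular identifiers were used, so intervals cover counting error only.

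Levels were tested on counts by edgeR 4.0.16 (quasi-likelihood, older method, TMM, filterByExpr at a minimum count of 10) in R 4.3.3, with 1 model of 4 groups over 12 libraries. Adjusted p-values (Benjamini-Hochberg) covered the 137 miRNAs tested, and the threshold was 0.05. The common dispersion was 0.749 (biological coefficient of variation 86.5%). Shares and ratios went into exact permutation tests, all two-sided, that listed every arrangement (Python 3.11.15). The other factor was held fixed for mean effects (400 arrangements, smallest p 0.005). These p-values were adjusted over 6 comparisons per measure (scipy 1.17.1). Correlations used 100000 resamples. Whole-table tests were tested on simulated counts whose dispersion was set far below that of these data. That check therefore does not cover replicates as spread as these. Alternatives were other scalings and filters, DESeq2 1.42.0, limma 3.58.1 with 1 or 10 added to TPM before log2, a replicate block, and leaving out libraries.

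Same-letter deviations correlated at 0.449 (A), 0.228 (B) and 0.237 (C) between 30d -P and 30d +P, so letters pair those libraries by the data; in the other comparisons at least 1 pair was under 0.1. The labels do not say what a letter shares. Named miRNAs were the 3 members, the leaf development list, novel_1, novel_2 and the 5 most like e. The members and lists were chosen with earlier results of these data known. The labelled tissue was not checked against markers, and miRNA sequences were not used here.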

Additional observations from a re-analysis of the deposited data

How the results depend on the processing

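Under no alternative did the level of a member pass the threshold other than aqc-miR166e over time. Its mean time effect was 1.06 with 10 counts in 6 libraries, 0.68 with DESeq2 on 12 libraries and 0.88 without both 30d C libraries, and its 90d +P against 30d +P change was 1.65, 1.06 and, with the newer quasi-likelihood method, 1.31. As a share of known miRNA counts, the mean time effect on the family share was 3.82 percentage points (exact permutation test, adjusted p = 0.03). The family made up most of those counts, so this measure also moves with other known miRNAs such as aqc-miR396b. Its mean TPM was 38561 in 30d +P and 16204 in 90d +P, and 30395 in 30d -P and 35994 in 90d -P. How far it set the value was not tested.

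No difference in a member level, a share or a ratio had passed in the main analysis, so directions could turn only for such differences. The cause of the turns was not tested. For a, the 90d phosphorus difference (log2) was 0.17 with library totals, 0.084 without the members in the totals, 0.19 with no filter, and 0.27 with limma at either pseudocount; its interaction was 0.12 with RLE and with DESeq2 on 12 libraries, 0.59, 0.50 and 0.078 with the first 3 settings, and 0.69 with limma. For c at 90d the values were 0.016 with RLE and DESeq2 on 12 libraries, 0.033 with DESeq2 on 6, 0.33, 0.24 and 0.36 with those 3 settings, and 0.41 with limma. With no filter a was 0.11 at 30d and the mean phosphorus effects were 0.15 (a), 0.17 (c) and 0.34 (e). That of e was 0.029 with library totals, 0.037 with limma and 0.045 without both 30d C libraries, where a at 30d was 0.051. c in 90d -P against 30d -P was 0.10 without the members in the totals. As a share of counts, a at 90d was -0.11 and c over time under -P 0.022 with TMM scaling, c was 0.45 without both 30d C libraries, and the mean phosphorus effect on e was -0.012 as log2 odds and -0.040 with TMM scaling.

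With the replicate block on 12 libraries, c was 0.023 at 90d and 0.12 in 90d -P against 30d -P, and no member call changed; over all miRNAs the block took the calls at 90d from 3 to 0 and for the mean phosphorus effect from 6 to 4.

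Leaving out each library in turn changed a direction or a call in these differences, given as lowest to highest. For the family share of counts in percentage points, -4.17 to 1.48 (mean phosphorus), -4.05 to 6.44 (phosphorus at 30d) and 9.55 to 15.2 (mean time). For the share of a in all counts in percentage points, -0.179 to 0.734 (phosphorus at 90d) and -0.437 to 0.0193 (mean phosphorus). For the share of c in all counts in percentage points, -2.48 to 0.447 (time under -P) and -0.304 to 3.22 (phosphorus at 90d). For the share of e in all counts in percentage points, -3.84 to 2.5 (mean phosphorus) and 14.5 to 20.9 (mean time). For the share of a in the family in percentage points, -0.334 to 1.28 (phosphorus at 90d), -2.63 to -1.81 (mean time) and -0.779 to 0.0457 (mean phosphorus). For the share of c in the family in percentage points, -0.753 to 5.49 (phosphorus at 90d). For the share of e in the family in percentage points, -6.76 to 1.09 (phosphorus at 90d) and 8.43 to 11.9 (mean time). For the log2 ratio of e to c, -0.17 to 0.37 (mean phosphorus). For the log2 ratio of e to a, -0.26 to 0.31 (mean phosphorus), -1.11 to 0.028 (phosphorus at 90d) and 1.09 to 1.69 (mean time). For the log2 ratio of c to a, -0.50 to 0.16 (phosphorus at 30d), -0.066 to 0.61 (time under -P), -0.18 to 0.15 (mean phosphorus), -0.055 to 0.28 (mean time), -0.12 to 0.042 (time under +P) and -0.12 to 0.40 (phosphorus at 90d). For the log2 fold change of a, -0.65 to 0.73 (interaction), -0.36 to 0.0097 (phosphorus at 30d), -0.50 to 0.19 (mean phosphorus), -0.82 to 0.56 (phosphorus at 90d) and -1.22 to 0.011 (time under +P). For the log2 fold change of c, -0.73 to 0.088 (time under -P), -0.46 to 0.24 (mean phosphorus), -0.64 to 0.63 (phosphorus at 90d) and -0.36 to 0.91 (interaction). For the log2 fold change of e, -0.15 to 0.31 (mean phosphorus) and 0.52 to 0.90 (mean time).

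Calls over all miRNAs moved from 3 to between 0 and 9 for phosphorus at 90d, from 0 to at most 31 for 90d +P against 30d +P (DESeq2), at most 8 for 90d -P against 30d -P, and at most 43 for the mean time effect (24 without 30d +P C), and from 6 to between 0 (without 90d +P A) and 9 for the mean phosphorus effect, with 0 throughout at 30d. Counting error on the ratio of e to c (SE at most 0.00999 on the log2 scale) was far below the spread within groups (SD 0.725), so the replicates and not the depth limited the precision.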
